A study of Bos taurus with 15 samples.

Results

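A CpG reads the same on both strands of the double helix, so its methylation can be measured 2 times, once on the cytosine of each strand. The CpG pairs described here were neighbouring positions n and n+1 on chromosomes 1 to 29, each with 5 or more reads, in at least 4 of 6 mammary libraries. Of 8608815 couples of adjacent positions listed in any animal, 4645 met this rule. The files carry no strand column. The phase of each couple within its run of adjacent listed positions was therefore used to tell the strands of 1 CpG from the touching cytosines of neighbouring CpGs. By this phase, 4410 couples were the strands of 1 CpG and are the pairs described here, whereas 219 joined neighbouring CpGs and 16 lay in runs of odd length, and both of these were set aside. Of the 4410 pairs, 2160 were read in all 6 heifers, 1162 in 5 and 1088 in 4.

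Methylation of a CpG is copied at each round of DNA replication. The parent strand keeps its methyl groups, UHRF1 recognises the CpG that is methylated on 1 strand only, and the maintenance enzyme DNMT1 methylates the new strand. A CpG left with 1 methylated strand is called hemimethylated, and TET enzymes and incomplete copying are known routes to that state. A bisulfite read reports 1 strand of 1 DNA molecule. The comparison therefore set the methylation level of all reads from 1 strand beside that of all reads from the other, and hemimethylated molecules were not counted one by one.

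The heifers were Holstein daughters of dams that spent the last weeks of gestation either with shade alone (in utero heat stressed, IUHT-H, n = 3) or with shade, fans and soakers (in utero cooled, IUCL-H, n = 3). Both groups were managed alike after birth, and mammary tissue was biopsied at 21 days into the first lactation. Each heifer gave 1 library by reduced representation bisulfite sequencing (RRBS), a method that reads the CpG-rich part of the genome, and heifers are numbered within a group in the order of their records. Livers of newborn bull calves of the same treatments (IUCL-B, n = 5, and IUHT-B, n = 4) served for comparison. A further IUCL-H heifer and a further IUHT-B calf named in the methods of the study were not analysed here.

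The heifer files held 13949097 to 20240625 reads of CpG positions, spread over 7552567 to 9753540 positions, and the typical (median) position had 1 read. The pairs were selected on their read counts alone, not on methylation, and were thus the deeply read edge of these libraries. In 2414 of the 4410 pairs (54.7%) at least 1 strand in at least 1 heifer was above the highest 0.1% of all positions of that library, which began at 46 to 66 reads. They were also bunched. Chromosome 27 held 568 pairs (12.9%) and chromosome 8 held 474 (10.7%), with 436 pairs between megabases 28 and 29 of chromosome 27 alone and 318 in the megabase that starts at 74 Mb of chromosome 8. Positions refer to the bovine assembly UMD3.1.1 and are counted from 1. A sequence or gene annotation of that assembly was not used here, so neither the bases nor the genes at the pairs are given.

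Within a heifer, 47.3 to 55.6% of the pairs had strands within 10 points of each other, counting error included, and pairs were mostly methylated. The merged level, from the reads of both strands together, averaged 70.6%, 70.3% and 70.6% in IUCL-H heifers 1, 2 and 3, and 69.4%, 69.3% and 68.6% in IUHT-H heifers 1, 2 and 3. Over the 6 heifers, 891 pairs (20.2%) had a merged level of 90% or more, 1772 (40.2%) lay between 70 and 90%, 1367 (31%) between 30 and 70%, 318 (7.21%) between 10 and 30% and 62 (1.41%) under 10%. The mean absolute difference between the strands was 14, 15.0 and 12.9 percentage points in IUCL-H heifers 1, 2 and 3. It was 14.7, 13.9 and 14.1 points in IUHT-H heifers 1, 2 and 3. These values lay close together and the groups overlapped.

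Pearson's r between the level of position n and that of position n+1, across the pairs of 1 heifer, was 0.694, 0.665 and 0.734 in the IUCL-H heifers and 0.694, 0.715 and 0.718 in the IUHT-H heifers. It rested on 3327 to 4138 pairs that share a library and its depth, and it is given as a description. Strands more than 40 points apart made up 5.93%, 6.10% and 4.78% of the pairs read in the IUCL-H heifers and 6.30%, 5.00% and 6.22% in the IUHT-H heifers. Opposite states, with 1 strand at 90% or more and the other at 10% or less, were rare, at 0.0763 to 0.226% of the pairs of a heifer.

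Much of the difference between strands was counting error. With a median of 17 to 28 reads per strand, the binomial error expected from the reads made up 48.5 to 53.4% of the squared difference. The expected error was subtracted from the squared difference of each pair, and the root of the mean of what remained is called here the strand difference free of counting error. It was 13.9, 14.2 and 13.6 points in the IUCL-H heifers and 14.6, 13.9 and 13.7 points in the IUHT-H heifers. Freed of counting error in the same way, r was 0.809 to 0.845. No lean to either strand was detected. The level at n minus the level at n+1 averaged 0.0489 ± 0.190 points (SD, n = 6 heifers; two-sided exact sign-flip permutation test, p = 0.531; 4 heifers above 0). Errors and intervals from reads cover counting error only, because reads amplified by PCR without molecular identifiers are not independent molecules.

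**Figure D1:**
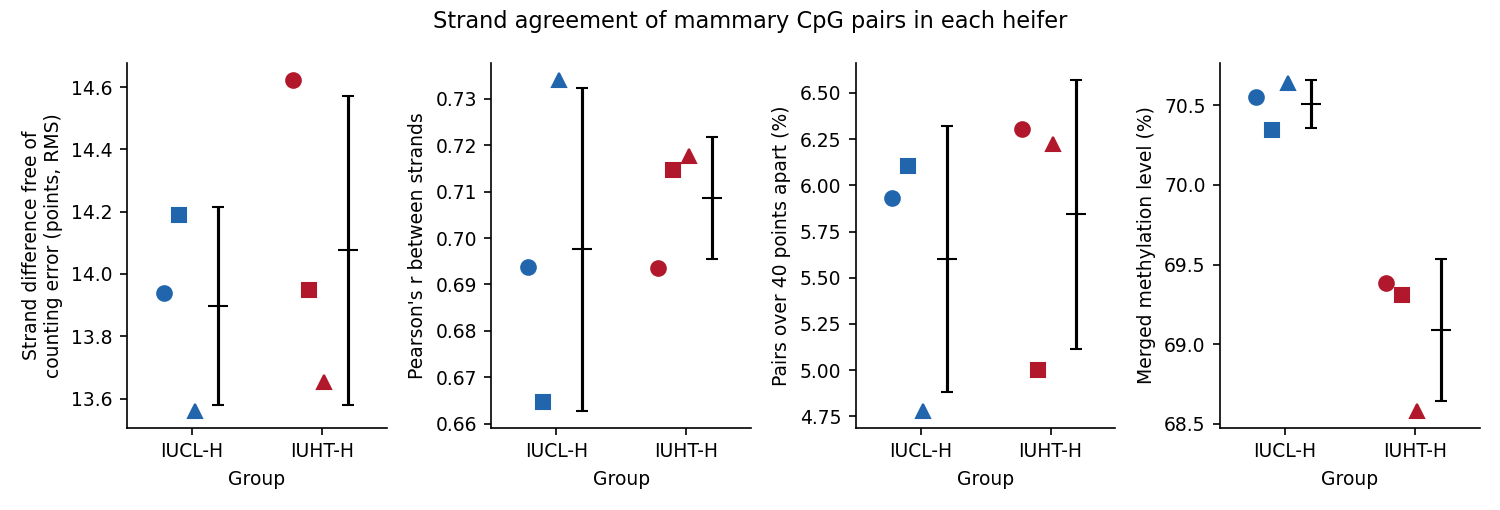
Each point is 1 heifer (circle, square and triangle for heifers 1, 2 and 3), and the bars give the group mean ± SD (n = 3). The panels plot the strand difference free of counting error in percentage points, Pearson's r between strands, the percent of pairs over 40 points apart and the merged methylation level in percent. The axes do not start at 0, and of these 4 panels only the merged level has groups that do not overlap.

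The comparison of IUHT-H with IUCL-H asks whether heat stress of the dam went with a change in strand symmetry in the daughter's mammary gland. In 4 measures of strand symmetry the heifers of the groups overlapped. The mean absolute strand difference was 14.3 ± 0.405 points in IUHT-H and 14 ± 1.03 points in IUCL-H (SD, n = 3 each; difference 0.263 points, two-sided exact permutation p = 0.8). The strand difference free of counting error was 14.1 ± 0.497 against 13.9 ± 0.318 points (difference 0.180 points, exact permutation p = 0.6). Pearson's r was 0.709 ± 0.0132 against 0.698 ± 0.0349 (exact permutation p = 0.7), and pairs over 40 points apart made up 5.84 ± 0.729% against 5.60 ± 0.720% (exact permutation p = 0.5). Each of these differences was smaller than the larger SD of its groups. Opposite states, a rarer event, made up 0.221%, 0.226% and 0.0975% of the pairs of IUCL-H heifers 1, 2 and 3 and 0.0763%, 0.0967% and 0.0902% in the IUHT-H heifers. Here the groups did not overlap, though IUCL-H heifer 3 lay next to the IUHT-H heifers (0.0877 ± 0.0104% in IUHT-H against 0.181 ± 0.0727% in IUCL-H, exact permutation p = 0.1, not adjusted, and the smallest that 3 against 3 heifers allow). These shares were 9, 8 and 4 pairs in IUCL-H and 3, 4 and 3 pairs in IUHT-H, and the exact permutation p was 0.4 with 10 reads per strand, 0.3 for pairs below the highest 0.1% of coverage, 0.2 with X and unplaced sequences and 0.3 without chromosome 27.

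The heifers of the groups also did not overlap in the merged level. It was 69.1 ± 0.445% in IUHT-H and 70.5 ± 0.151% in IUCL-H, a difference of -1.42 points (exact permutation p = 0.1, which is the smallest that 3 against 3 heifers allow, and 0.5 after Benjamini-Hochberg adjustment over it and the 4 measures above). The strands shared it. At position n the level was 69.1 ± 0.423% against 70.3 ± 0.102%, and at position n+1 it was 69.0 ± 0.420% against 70.3 ± 0.252%. In pooled reads at the 4410 pairs, 57.0% of the pairs were lower in IUHT-H, with a median difference of -0.808 points over all pairs. The p-values measure the spread between these animals, which are 1 library each.

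The gap in level and in opposite states was not found without overlap when every pair with 5 or more reads on both strands in a heifer was used, in however many heifers it was read (6257 to 12981 pairs per heifer). The merged level was then 72 to 77.2% in IUHT-H and 75.8 to 78.1% in IUCL-H (difference -3.09 points, exact permutation p = 0.3), and opposite states made up 0.124 to 0.223% and 0.0770 to 0.224% (exact permutation p = 0.9). The strand difference free of counting error was 12.1 to 15.4 points in IUHT-H and 12.1 to 13.5 points in IUCL-H, a larger but still overlapping difference of 1.38 points (exact permutation p = 0.3). For pairs over 40 points apart the difference was 1.1 points (exact permutation p = 0.3). The heifers then differ in which pairs are read.

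What remained of the strand difference after counting error recurred from heifer to heifer. For each of the 15 couples of heifers, the mean product of their strand differences was set against the mean square free of counting error. The shared share was 73.2 to 91.4% (median 82.6%). It was 82.6 to 89.8% between IUCL-H heifers, 75.2 to 82.3% between IUHT-H heifers and 73.2 to 91.4% between heifers of different groups.

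Over all pairs together, the same strand of the same CpG was more alike in different heifers than were its strands within a heifer. Free of counting error, the same strand differed between heifers by 4.63 to 9.88 points (median 7.57). The opposite strands differed by 13.6 to 14.6 points within a heifer and by 14 to 15.4 points (median 14.7) between heifers. These ranges do not overlap between same and opposite strands. The order was reversed at the 165 pairs with 40 or more listed positions within 100 bp. There the same strand differed between heifers by 13.3 points and the strands within a heifer by 9.77 points on average (6.25 to 13.3). The 15 couples share heifers, so no test was made over them. As single readings were noisy, r of the strand differences of heifer couples, counting error included, was only 0.348 to 0.458.

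The difference was spread unevenly over the pairs. The absolute value of the mean strand difference over heifers had a median of 6.12 points, a 75th percentile of 12.5, a 95th percentile of 29.7 and a 99th percentile of 58.2, and 67.1% of pairs were within 10 points. The 221 pairs (5%) with the largest strand difference in IUCL-H carried 45.4% of the squared strand difference of IUHT-H, whose heifers had not been used to choose them. The 5% chosen in IUHT-H carried 47.7% of that of IUCL-H.

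**Figure D2:**
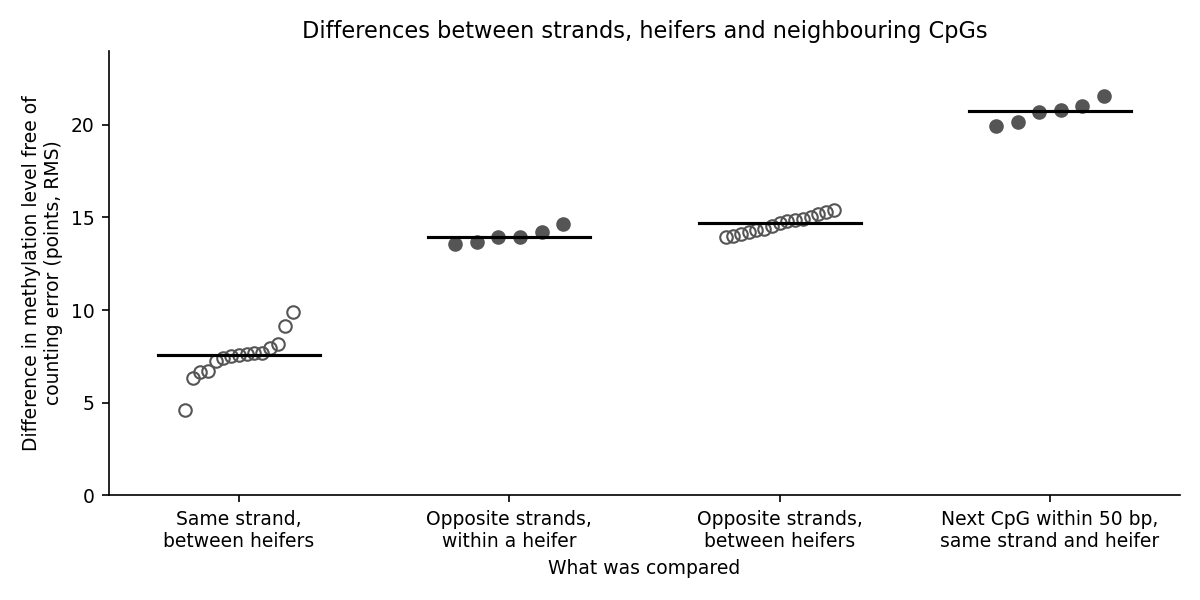
Differences in methylation level free of counting error, in percentage points (root mean square over pairs), for the same strand between heifers (15 couples of heifers, open circles), opposite strands within a heifer (6 heifers, filled), opposite strands between heifers (15 couples) and the same strand of the next CpG within 50 bp (6 heifers). Points are sorted by value within a column and lines are medians. The same strand in different heifers lies lowest, at 4.63 to 9.88 points.

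The strand difference was greatest where methylation was low or intermediate. When pairs were put into classes by their merged level in the other heifers, so that the heifer measured did not set its own class, it was 16.6 to 21.6 points over the heifers at a level of 10 to 30%. It was 16.8 to 19.6 points at 30 to 70%, 9.87 to 11.9 points at 70 to 90% and 6.13 to 9.08 points at 90 to 100%. The few pairs under 10%, 47 to 61 per heifer, spread from 11 to 22.9 points. In every heifer the class of 30 to 70% lay above that of 70 to 90%, and that of 70 to 90% above that of 90 to 100%. The measure is on the percent scale, on which a level near 0 or 100% bounds the difference.

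Depth went with the strand difference even after counting error was taken out. Pairs with 5 to 9 reads on the less read strand had 14.3 to 16.2 points, those with 10 to 19 reads had 13.6 to 15.2, those with 20 to 49 reads had 11.6 to 13.0 and those with 50 or more had 6.19 to 10.02. In each heifer the class of 50 or more reads was the lowest. The strand difference showed no steady trend with the number of heifers read. The 2160 pairs read in all 6 heifers had 12.3 to 13.5 points and the 1162 read in 5 had 14.6 to 15.9. The 1088 pairs read in exactly 4 heifers had 13.2 to 16.7 points and a level of 65.5 to 71.3%, and the 1485 pairs just outside the rule, read in exactly 3, had 11.7 to 17.5 points and 68.9 to 76.4%. The 3698 pairs read in exactly 2 heifers had 11.9 to 16.7 points.

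CpG density also went with it. The density of a pair was the number of listed CpG positions within 100 bp. Pairs with 9 or fewer had 16.7 ± 0.563 points and pairs with 20 or more had 11.8 ± 0.524 (SD, n = 6 heifers; higher in 6 of 6; exact sign-flip permutation p = 0.0313, the smallest that 6 heifers allow, and 0.0375 after Benjamini-Hochberg adjustment over 6 such comparisons). Pairs in runs of 4 or more adjacent positions had 14.6 ± 2.15 points and lone pairs 13.9 ± 0.293 (higher in 4 of 6, exact permutation p = 0.438, adjusted 0.438). Level, depth and density were not separated from each other, and their part in one another's differences was not tested.

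**Figure D3:**
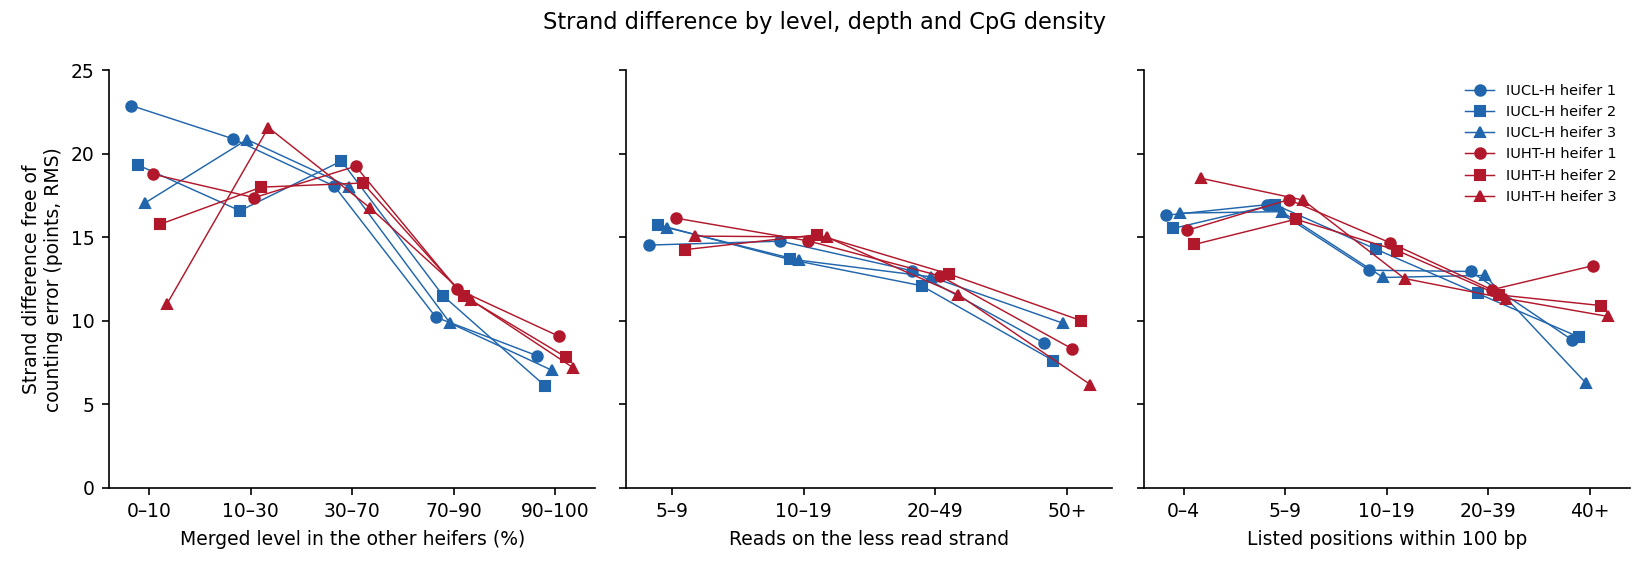
Strand difference free of counting error (percentage points) in each heifer, against the merged level in the other heifers (percent), the reads on the less read strand and the number of listed CpG positions within 100 bp. Each line is 1 heifer (blue IUCL-H, red IUHT-H), with points shifted sideways for sight. All 6 heifers fall from 30 to 70% to 90 to 100% methylation and reach their lowest depth class at 50 or more reads. Every IUHT-H heifer lies above every IUCL-H heifer at 10 to 19 reads (14.79 to 15.16 against 13.64 to 14.78 points). The same holds for the 165 pairs with 40 or more listed positions (10.3 to 13.3 against 6.25 to 9.03 points). In the other classes the groups overlap, and group differences by class were not tested.

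The strands of a CpG were closer to each other than to the next CpG. This was read from 2559 couples of successive pairs at most 50 bp apart, and a pair in 2 couples counted in each. The strands of a pair differed by 13.4 ± 0.522 points and the same strand of the next CpG by 20.7 ± 0.584 points (SD, n = 6 heifers). The strands of a pair had the lower value in 6 of 6 heifers (exact permutation p = 0.0313, adjusted 0.0375). Couples of touching cytosines from neighbouring CpGs, which had been set aside, differed by 18.6 ± 1.23 points, more than the 14 ± 0.386 of the pairs in 6 of 6 heifers (the same p and adjusted p). Neighbouring pairs often tilted to the same strand. The sign of the strand difference was the same for 64.2% of 704 neighbours 2 to 5 bp apart, 58.8% of 636 at 6 to 10 bp, 54.9% of 1085 at 11 to 30 bp, 52.2% of 209 at 31 to 100 bp and 47.2% of 316 beyond 100 bp and up to 500 bp. Single reads of 50 bp can cover both neighbours at the shorter distances, so these are not independent readings.

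Pairs on other sequences differed from those of chromosomes 1 to 29. On sequences not placed on a chromosome, 869 pairs met the same rule and their strands differed by 17.4 ± 1.18 points free of counting error (higher in 6 of 6 heifers, exact permutation p = 0.0313, adjusted 0.0375). On chromosome X, 246 pairs differed by 7.51 ± 2.69 points, from 4.56 to 11.3 (lower in 6 of 6, the same p and adjusted p). Chromosome 27, with its bunched pairs, had 14.5 to 17.6 points over the heifers against 13.1 to 14.1 for the other chromosomes.

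Single pairs were tested next. Logistic regression of the read counts on heifer and strand, with the cut-offs of the study (15 points and a q-value of 0.2), called a strand difference at 743 of 4410 pairs (16.8%). Position n was higher at 359 (8.14%) and position n+1 at 384 (8.71%). Reads were the replicates of this model. The heifer term took up differences in level, but the spread of the strand difference between heifers was not part of its error. With an overdispersion term and an F test 274 pairs were called (6.21%). All 274 were among the 743, which was fixed in advance, since this test can only raise the p-value of a pair. Limma on log2 of methylated over unmethylated reads called 669 (15.2%), of which logistic regression called 652. Of the 743 pairs, 499 had the same sign in every heifer read. Calls were most frequent at intermediate levels, with 95 of 318 pairs (29.9%) at 10 to 30% and 382 of 1367 (27.9%) at 30 to 70%, and least frequent at 90 to 100%, with 27 of 891 (3.03%).

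At 41 pairs (0.930% of all) the strands were more than 40 points apart in every heifer in which the pair was read, 19 of them in all 6 heifers. Position n was the higher at 20 and position n+1 at 21. The higher strand had a mean level of 66.6 to 100% (median 87.9%) and the lower strand 0.756 to 48.1% (median 14.4%), and 17 pairs had the higher strand at 80% or more and the lower at 20% or less. As this difference chose them, it is given with no test. The threshold cut through a run of values. The smallest differences of the pairs just inside were 40.7, 41.2, 42.2, 42.2 and 42.9 points, and those just outside were 39.9, 38.7, 38.3, 38.2 and 38.2 points.

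These 41 pairs lay on 17 chromosomes, with 9 on chromosome 27, 5 on chromosome 8 and 4 on chromosome 29. Of all pairs, 12.9%, 10.7% and 5.56% lay on these chromosomes. The 5 windows of 1 Mb that hold most pairs held 17 of the 41, against 27.2% of all pairs. Of the 41, 22 were within 1 Mb of another, and this share is not given for all pairs. Their depth was like that of all pairs, with a median of 26 reads per strand against 25.5. They had a median of 9 listed CpG positions within 100 bp, against 14 for all pairs. Their strands were more unequal in depth, with a median ratio of the deeper to the shallower strand of 3.69 against 2.39, and 15 of the 41 had a ratio of 5 or more against 23.8% of all pairs. The higher strand was the deeper one at 20 of them, against 52.3% of all pairs. Of the 41, 21 had a strand above the highest 0.1% of coverage in a heifer, against 54.7% of all pairs. The part of unequal depth in the strand difference was not tested.

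Pairs chosen in 1 group of heifers kept their difference in the other. The 70 pairs over 40 points apart, in 1 direction, in every IUCL-H heifer read averaged 65.5 points there. In IUHT-H heifers 1, 2 and 3 they averaged 57.9, 56.6 and 51.3 points in the same direction, and 60 of 63, 62 of 63 and 50 of 53 pairs kept their sign. The 63 pairs chosen in IUHT-H, at 64.1 points, averaged 60.3, 52.2 and 54.7 points in IUCL-H heifers 1, 2 and 3, with 55 of 57, 49 of 51 and 61 of 62 keeping their sign. Chosen in 5 heifers and read in the sixth, 37 to 46 pairs averaged 59.2 to 67.4 points, and every one kept its sign. A difference over 40 points was met again by 78.3 to 93.0% of them.

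The clearest of these pairs show the pattern in single heifers. They were the 5 with n higher and the 5 with n+1 higher whose smallest difference over all 6 heifers was largest. At chr27:30559859-30559860, position n was methylated in 12 of 14, 10 of 11 and 6 of 6 reads in IUCL-H heifers 1, 2 and 3 and in 7 of 8, 13 of 13 and 17 of 17 reads in the IUHT-H heifers. Position n+1 was methylated in 6 of 36, 3 of 40 and 4 of 41 reads and in 2 of 30, 6 of 57 and 1 of 22 reads. One strand was thus nearly full and the other nearly empty in all 6 heifers, at 94.0 ± 6.76% and 9.28 ± 4.21% (SD, n = 6). The Wilson 95% intervals of the strands did not meet in any heifer, the closest being IUCL-H heifer 1 with 60.1 to 96.0% against 7.87 to 31.9%. As the pair was chosen for its difference in these same reads, the intervals are a description and no test.

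The neighbouring CpG 5 bp away showed the reverse. At chr27:30559864-30559865, position n was at 14.3%, 15.4% and 0% in the IUCL-H heifers and 0%, 21.4% and 11.8% in the IUHT-H heifers, on 5 to 17 reads. Position n+1 was at 83.8%, 78.0% and 77.5% and at 72.7%, 85.1% and 83.3%, on 24 to 47 reads. The lower strand averaged 10.5 ± 8.71% and the higher 80.1 ± 4.78%. The tilt of these CpGs was opposite although a single read could hold both. The zeros rested on 5 and 8 reads, which allow levels of up to 60% and 37.5% (3 reads of the total).

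At chr8:99201221-99201222, position n was at 93.5%, 90% and 91.7% in IUCL-H and 88.9%, 88.4% and 78.3% in IUHT-H, on 18 to 43 reads. Position n+1 was at 9.40%, 6.67% and 10.8% and at 9.02%, 4.08% and 9.62%, on 52 to 268 reads. This pair had the deepest reading on its lower strand of these 10, and its strand difference was 80.2 ± 5.94 points (SD, n = 6). At chr8:74727181-74727182 the depths were the other way round. Position n stayed between 97.0 and 98.9% on 79 to 172 reads, while position n+1 ranged from 0 to 42.9% on 5 to 20 reads.

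At chr29:30260485-30260486, position n was at 81.8%, 64.3% and 90.6% in IUCL-H and 66.7%, 61.5% and 81.3% in IUHT-H. Position n+1 was at 4.35%, 2.04% and 10.3% in IUCL-H. It was at 0% in every IUHT-H heifer, in 0 of 39, 0 of 69 and 0 of 91 reads, which allow up to 7.69%, 4.35% and 3.30%. At chr27:28788584-28788585, position n ran from 56.3 to 83.3% and position n+1 from 0 to 11.8%. In both pairs the strands stayed apart by 50.0 points or more in each heifer.

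Of the pairs with n+1 higher that were read in all 6 heifers, chr14:214609-214610 had the largest smallest difference, 71.6 points. Its position n was at 9.09%, 11.1% and 10.7% in IUCL-H and at 0% in 13, 8 and 14 reads in IUHT-H, and its position n+1 was at 100%, 100% and 82.4% and at 75%, 80% and 83.3%. At chr9:53618862-53618863 the spread between heifers was the smallest of the 10, with a strand difference of -63.7 ± 3.96 points. Its position n ranged from 22.1 to 37.4% on 95 to 146 reads and position n+1 from 90 to 95% on 10 to 24 reads. Position n+1 was also high in every heifer at chr27:37629992-37629993, at 87.9 to 96.9% against 11.1 to 36.4%, and at chr16:21902-21903, at 83.3 to 96.4% against 7.69 to 35.3%. None of these 10 pairs passed for treatment at 15 points. The pair at chr29:30260485 passed the q-value alone (0.0124 by logistic regression, 0.942 by limma), with -13.1 points in pooled reads.

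**Figure D4:**
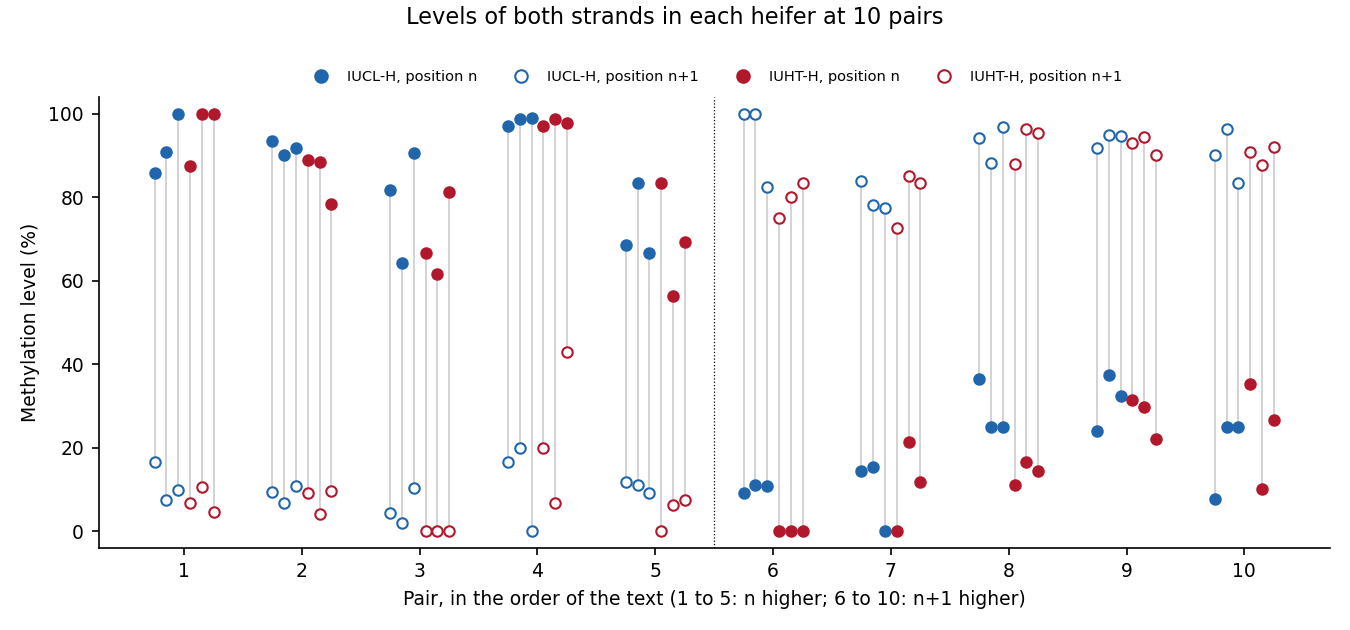
Methylation level (percent) of position n (filled) and position n+1 (open) in each heifer (IUCL-H blue, IUHT-H red) at 10 CpG pairs, with a line joining the strands of a heifer. From left to right they are chr27:30559859, chr8:99201221, chr29:30260485, chr8:74727181, chr27:28788584, chr14:214609, chr27:30559864, chr27:37629992, chr9:53618862 and chr16:21902. The strands stay at least 50.0 points apart in every heifer.

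Few pairs were called for a strand symmetry that differed between the treatments. Logistic regression called a strand difference that depended on treatment at 17 of 4410 pairs (0.385%), and the F test and limma called 0. At an unadjusted p under 0.05 logistic regression, the F test and limma had 352, 26 and 218 pairs. Chance alone marks about 1 in 20 pairs, and limma was near that share. The F test, whose overdispersion term is at least 1, stayed far below it. With so few heifers per pair, its 0 calls cannot show that strand symmetry was alike in the groups. By logistic regression, leaving out IUCL-H heifers 1, 2 or 3 gave 8, 10 or 8 calls. Leaving out IUHT-H heifers 1, 2 or 3 gave 11, 5 or 19. The heifers of the groups did not overlap in strand difference at 796 pairs (18%). The 17 included 15 pairs without overlap, and the 3 with the greatest contrast were each read in 4 heifers.

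At chr22:42412522-42412523, position n was methylated in 0 of 5 reads in both IUCL-H heifers read and in 3 of 6 and 3 of 5 reads in IUHT-H heifers 1 and 3, while position n+1 was at 100% and 85.7% and at 78.6% and 33.3%. At chr13:2876-2877, position n was at 33.3% and 85.7% in IUCL-H heifers 1 and 3 and at 20% and 9.09% in IUHT-H heifers 1 and 2, and position n+1 at 0% and 0% and at 50.0% and 22.2%. At chr27:28591596-28591597, position n was between 59.6 and 66.3% on 768 to 1233 reads in all 4 heifers. There the contrast came from position n+1, at 20% and 50.0% in IUCL-H and 100% and 100% in IUHT-H, on 5 to 7 reads. In each of the 3, at least 1 strand had fewer than 10 reads in every heifer read.

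The treatment was then tested on the merged strands. Logistic regression called 102 of 4410 pairs (2.31%), 30 hypermethylated (0.68%) and 72 hypomethylated (1.63%) in IUHT-H. Unlike the strand models, this model held no term for heifer, and the spread in level between heifers was not part of its error. As in those models, reads rather than heifers were its replicates. The F test and limma called 0, and the limit of the F test given above holds here too. At an unadjusted p under 0.05 logistic regression, the F test and limma had 641, 51 and 201 of the 4410 pairs. Chance marks about 1 in 20, so limma was near that share and the F test far below it. Leaving out IUCL-H heifer 1 raised the calls of logistic regression to 179. The heifers of the groups did not overlap in merged level at 876 pairs (19.9%). Of the 41 pairs over 40 points apart, 2 were called for treatment, against 2.31% of all pairs.

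The strand not used gave a second reading of each treatment call. At position n alone 65 pairs were called (1.47%), with a median absolute difference of 26.3 points, and at position n+1 of the same CpGs the median difference in that direction was 0.791 points, with 36 of 65 in the same direction. At position n+1 alone 81 were called (1.84%), with a median of 27.7 points, and position n gave 5.11 points, with 57 of 81 in the same direction. Only 7 pairs were called on both strands, 10.8% of the calls at n and 8.64% of those at n+1, and 6 of the 7 agreed in direction. Across all pairs the treatment difference at n and at n+1 had the same sign at 50.8% of pairs, with r = 0.0518 over 4410 pairs that share libraries. A call at 1 strand was thus seldom met on the other at these depths, and counting error in both readings was not removed from these values.

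Of the 102 calls on merged strands, 92 had the same direction on both strands and 48 reached 15 points on both. Their merged levels include the strands compared, so this is a description. The pairs with the largest differences among calls without overlap were mostly read in 1 or 2 heifers of a group. At chr14:11406497-11406498 the merged level was 25%, 10.5% and 20% in IUCL-H and 70% in the 1 IUHT-H heifer read, where position n was at 37.5% on 8 reads and position n+1 at 78.1% on 32 reads. Here the strands of that heifer did not agree on the size.

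At chr6:34751935-34751936 the merged level was 69.0%, 50.0% and 50.0% in IUCL-H and 100% and 81.8% in IUHT-H, and the treatment difference had the same direction on both strands, 24.2 points at n and 40.4 at n+1. At chr13:48079621-48079622 it was 66.7% and 31.6% in IUCL-H and 75% and 83.3% in IUHT-H. Both were higher in IUHT-H on each strand in pooled reads. At position n of the latter the heifers overlapped, with 63.2% in IUHT-H heifer 1 and 66.7% in IUCL-H heifer 1.

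Of the pairs lower in IUHT-H, chr27:28618800-28618801 had 93.5% and 86.7% in IUCL-H and 45.6% and 43.0% in IUHT-H, with -47.8 points at n and -31.7 points at n+1. At chr12:39234734-39234735 it was 75%, 84.6% and 72.7% in IUCL-H and 34.2% and 46.4% in IUHT-H, and in pooled reads both strands were lower, by -23.2 points at n and -34.0 points at n+1. At n this rested on IUHT-H heifer 1 (44.4%), since IUHT-H heifer 2 was at 100% on 5 reads. At chr27:26351435-26351436 it was 45.0%, 70% and 51.4% in IUCL-H and 16.1% in 1 IUHT-H heifer. There the difference was -36.8 points at n and -8.18 points at n+1.

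The strands of the calf livers were more often far apart, and also more often equal, than those of the mammary glands. Over all pairs of chromosomes 1 to 29 with 5 or more reads on both strands in an animal, the strand difference free of counting error was 13.3 ± 1.41 points in heifers (SD, n = 6, from 12.1 to 15.4) and 43.9 ± 2.61 points in calves (SD, n = 9, from 39.1 to 46.4). The ranges did not overlap (two-sided exact permutation p = 0.0002, the smallest that 5005 splits allow). Pearson's r between strands was 0.675 ± 0.0174 against 0.338 ± 0.0901, and opposite states made up 0.168 ± 0.0603% of the pairs of heifers and 17.6 ± 2.92% of those of calves, each with the same p.

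The calf readings were of another kind as well. In calves 80.8 to 95.6% of the strand readings were at exactly 0 or 100%, against 24.5 to 33.8% in heifers, with a median depth at position n of 10 to 72 reads in calves and 8 to 12 in heifers. The binomial error of a reading at 0 or 100% is 0. The counting error subtracted was 0.309 to 2.32% of the squared difference in calves and 52.6 to 64.5% in heifers. Before subtraction the root mean square difference was 39.6 to 46.6 points in calves and 19.7 to 22.3 points in heifers. The median absolute strand difference of every calf was 0 points, against 9.08 to 11.3 points in heifers. Pairs within 10 points made up 69.7 to 77.3% in calves and 46.6 to 53.0% in heifers, and pairs over 40 points apart 19.1 to 24.3% and 5.30 to 7.91%. Calves had 91 to 79499 such pairs. The part of these all-or-none readings in the strand difference was not tested, and tissue, sex, age and the spread of the reads cannot be told apart between the heifers and the calves.

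**Figure D5:**
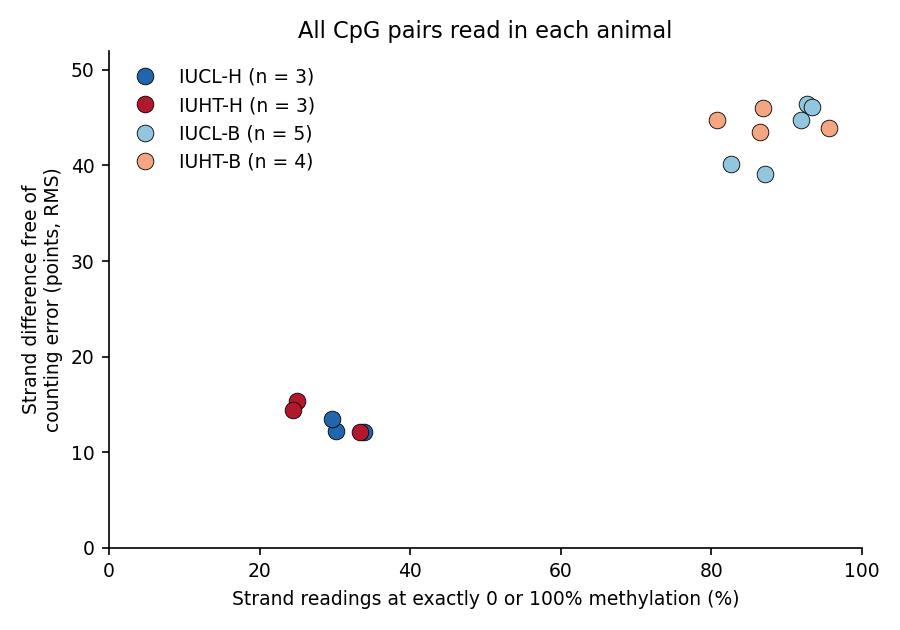
Each point is 1 animal, with the percent of strand readings at exactly 0 or 100% methylation on the x axis and the strand difference free of counting error (percentage points) on the y axis, over all CpG pairs read in that animal. The 6 mammary glands lie at 24.5 to 33.8% and 12.1 to 15.4 points and the 9 livers at 80.8 to 95.6% and 39.1 to 46.4 points.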

How the data were processed

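RRBS libraries of mammary gland (6 heifers) and liver (9 bull calves) were analysed. The authors digested DNA with MspI and TaqαI, and read converted fragments from single ends. The submitters' processing notes name Trim Galore 0.4.4 and Bismark 0.17.0 and the assembly UMD3.1; the study's methods give UMD3.1.1. The deposited files hold counts of methylated and of unmethylated reads per CpG position, with the percent methylated, and were not filtered on depth. All values were recomputed from these counts (Python 3.11.15, numpy 2.4.6, scipy 1.17.1, limma 3.58.1 in R 4.3.3 with a pseudocount of 0.5).

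Heifer measures were compared by exact permutation tests. Pairs were tested by logistic regression with likelihood-ratio tests, an F test with an overdispersion term of at least 1, or limma, with Benjamini-Hochberg adjustment over the 4410 pairs. Scripts were tested on simulated data. Pairs named for strand were read in all 6 heifers and over 40 points apart in each, ranked by their smallest difference, at least 1 kb apart within a direction. Those named for treatment had the largest differences among calls whose groups did not overlap. Alternatives are given in the closing section. The pairs, classes and tests were chosen with earlier results of these data known.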

Additional observations from a re-analysis of the deposited data

Results flagged for a closer look

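At 3 pairs the strand difference (n minus n+1) differed between the treatments by logistic regression on 4 heifers each, and the heifers of the groups did not overlap. These were chosen among the calls for that lack of overlap and then for the size of the contrast. Over all 4410 pairs the heifers of the groups did not overlap in strand difference at 796 (18%). The difference IUHT-H minus IUCL-H was 91.9 points at chr22:42412522 (q = 0.0463, Benjamini-Hochberg over all pairs), -81.1 points at chr13:2876 (q = 0.0247) and -68.7 points at chr27:28591596 (q = 0.0463). With an overdispersion term the q-value was 1 and with limma 0.696 at each of them. Dixon's test at 95% was applied to 14 sets of calf values: in each group, all pairs read and the mammary pairs read, the strand difference free of counting error over each of these, r, pairs over 40 points apart and opposite states. No calf passed it, where chance marks about 1 in 20. IUCL-B calf 5, with 79499 pairs read against 25468 in the next calf, stayed below its limit.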

How the results depend on the processing

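The level difference and that in opposite states kept their direction in all settings, although the heifers overlapped in both when every pair read in a heifer was used (-3.09 and -0.00289 points), and in opposite states also with 10 reads per strand, below the coverage limit, with all sequences and without chromosome 27 (exact permutation p of 0.2 to 0.4), and the difference between heifers and calves kept its direction and stayed past 0.05 in all 18. Leaving out 1 heifer gave -1.57 to -1.16 points for the level and -0.136 to -0.0713 points for opposite states, and leaving out 1 animal gave -31.2 to -30.3 points for heifers minus calves. Only at the mammary pairs, heifers minus calves was -22.9 points. The sign of the 4 measures of strand symmetry recomputed, and of the signed difference, turned in some setting. Leaving out 1 heifer gave -0.267 to 0.764 points for the mean absolute difference, -0.0940 to 0.391 points free of counting error, -0.00537 to 0.0294 for r, -0.173 to 0.660 points for pairs over 40 points apart and 0.00456 to 0.107 points for the signed difference. With 10 reads per strand the difference free of counting error was -0.107, that in pairs over 40 points apart -0.0627 and the signed difference -0.0325. The signed difference was -0.0792 for pairs read in all 6 heifers, -0.0313 below the highest 0.1% of coverage, -0.0418 with X and unplaced sequences (where pairs over 40 points apart gave -0.0120) and -0.0215 without chromosome 27, a setting chosen after seeing the data, as were keeping couples of any phase, counting each position alone, using every pair read in a heifer and recomputing opposite states.

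Counts of strand calls were 303 with 10 reads, 315 in all 6 heifers, 378 below the coverage limit, 274 with the F test and 328 at 25 points, and 731 to 795 without 1 heifer. Calls by treatment were 35, 37 and 25 in the first 3 of these settings, 0 with the F test and with limma at either pseudocount, 50 at a q-value of 0.05 and 25 at 25 points, and 91 to 179 without 1 heifer. Strand by treatment gave 7 in all 6 heifers, 9 below the coverage limit, 30 with all sequences, 10 at a q-value of 0.05, 0 with the F test and limma, and 5 to 19 without 1 heifer. Pairs over 40 points apart in every heifer numbered 22, 19 and 20 in the first 3 settings and 44 to 51 without 1 heifer, with 68 at 30 and 25 at 50 points. The settings with more reads, all heifers or a coverage limit hold 2054, 2160 and 1996 pairs, and the cause of their lower counts beyond fewer pairs was not tested.

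No paired analysis was possible because the heifers carry animal numbers that the groups do not share. With 3 heifers per group the smallest exact p of a single value is 0.1, and strands with 5 to 9 reads leave wide intervals. Sequence at the pairs was not analysed here.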

Other observations

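The mammary pairs were little read in the calf livers, at 25 to 1723 of the 4410 pairs. At pairs called for a strand difference in heifers, IUCL-B calf 5 read 211 and had the same direction at 103 (48.8%), and IUCL-B calf 4 read 196 with 108 (55.1%) in the same direction. IUCL-B calf 1 read 38, with 10 (26.3%) in the same direction. The other calves read 19 or fewer of them, with 38.9 to 50% in the same direction in the calves that read any. How many of the remaining readings had equal strands, and so no direction, is not given. The mean difference in the direction of the heifers was 2.12, 7.29 and 3.33 points in IUCL-B calves 5, 4 and 1. In the other calves that read any it ran from -3.86 to 21.0 points. The heifers had a mean absolute difference of 21.7 to 26.0 points at the same pairs. Of the 41 pairs over 40 points apart in heifers, 9 were read in a calf, in 14 readings, 8 of them in the same direction and 5 over 40 points apart in that direction. Over the mammary pairs the strand difference free of counting error was 27.3 to 44.7 points in calves.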
